A study of Mus musculus with 23 samples.

Results

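Sorted retinal microglia were compared 4 weeks after IOP (intraocular pressure) elevation and under naïve conditions in mice that were wild type with respect to Spp1. The comparison held 4 IOP and 4 naïve libraries of the 23 in the series, and 15880 of the 35825 genes in the table, namely those with a normalized count of 10 or more in at least 3 of these 8 libraries. All of these mice carried CX3CR1-GFP, an allele in which GFP marks cells that express the fractalkine receptor, heterozygous per the study's methods. IOP was raised by microbeads placed in the anterior chamber, whereas the labels give the naïve retinas no treatment. The study's methods state that control mice of the pressure model had saline injected, and whether any naïve library comes from such eyes is not given in the sources used here. A further WT group of the same CX3CR1-GFP genotype, 3 libraries taken 7 days after ONC (optic nerve crush), served to show where IOP libraries differed from those after crush. IOP libraries were taken at 4 weeks, so type of injury and time after injury cannot be told apart in that comparison.

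Microglia are the resident macrophages of the retina and depend on the CSF1 receptor. In an undisturbed retina they carry a homeostatic signature that includes the purinergic receptor P2ry12, Tmem119 and the transcription factor Sall1, and after injury they can lower these genes and turn on lysosomal, antigen-presenting and interferon-responsive genes. In experimental glaucoma, raised pressure damages the axons of retinal ganglion cells (RGCs) at the optic nerve head, and Müller glia and astrocytes become reactive.

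GFP in the Cx3cr1 locus also marks other cells that express the receptor, such as border macrophages and monocytes, and the retinas of several mice went into each sort, so a library is a pool and not 1 animal. Nothing in the labels ties a pool to separate experiments, and p-values measure the spread between these libraries. Each of the 8 libraries held 23678254 to 30296094 reads on genes, and all values are given below as normalized counts (reads over a library's size factor). The microglia label held: the 30 homeostatic markers were all measured and made up 5.88 to 7.14% of the counts in naïve libraries. Markers of retinal neurons were present as well, with the 26 rod genes at 1.96 to 2.42% of the counts of naïve libraries.

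IOP replicates 1 and 4 stood apart from replicates 2 and 3. The summed share of 27 lens genes was 0.933, 0.193, 0.133 and 1.01% of counts in IOP replicates 1 to 4, against 0.00440, 0.0132, 0.00361 and 0.00307% in naïve replicates 1 to 4. Rod genes held 3.30, 2.08, 2.40 and 3.53% in the 4 IOP libraries, and homeostatic microglial genes 4.11, 6.09, 6.29 and 4.44%. Replicates 1 and 4 were therefore highest for lens and rod RNA and lowest for microglial RNA, while replicates 2 and 3 lay inside the naïve range for rod and homeostatic genes but above it for lens genes. In sorted pools, fewer cells of a type and less RNA per cell cannot be told apart. Results are given below for all 4 IOP libraries and for IOP replicates 2 and 3 alone.

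**Figure D1:**
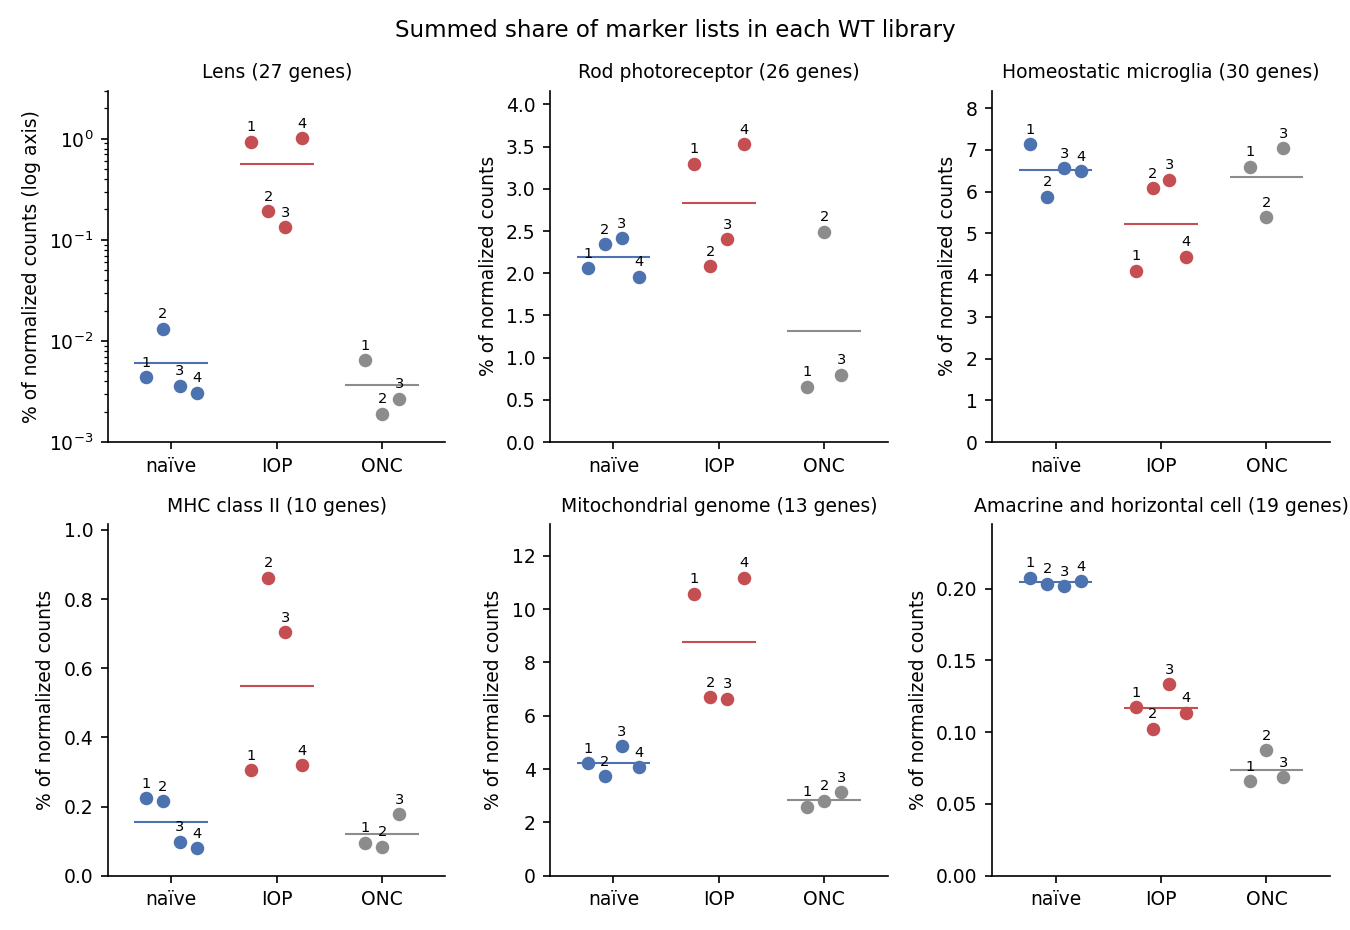
Summed share of 6 gene lists in percent of all normalized counts (y axis, logarithmic for lens) in each naïve, IOP and ONC library. Points carry the replicate number and lines give group means. Lens genes are above every naïve library in all 4 IOP libraries, and MHC class II is highest in IOP replicates 2 and 3. The summed share of the amacrine list is lower in all 4 IOP libraries, whereas its mean log2 level overlaps between IOP and naïve libraries.

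A total of 268 genes (1.69% of those tested) differed between IOP and naïve microglia, of which 141 were higher (0.888%) and 127 lower (0.800%) in IOP, where a call required an adjusted p below 0.05 in limma and a log2 fold change beyond 0.58 in size. The largest rises were lens crystallins, the corneal crystallin Aldh3a1 and Edn2, the peptide endothelin-2. Without a model, 2286 genes (14.4%) had 4 IOP libraries that did not overlap the 4 naïve ones, 1113 above and 1173 below, and 262 of the 268 called genes were among these 2286. At an unadjusted p under 0.05 limma held 2194 genes (13.8%), 1012 higher (6.37%) and 1182 lower (7.44%), the shares against which such counts in lists are given below. The median log2 fold change of all genes was -0.02. When each library was rescaled to the same level of homeostatic genes, an alternative chosen after seeing the data, the median of all genes moved to 0.32 and the calls became 113 higher and 5 lower, and with upper-quartile rescaling they were 133 higher and 79 lower. The number of genes called lower therefore depends on the scaling, and changes below are relative to the authors' scaling unless stated.

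Of the 141 genes called higher, 28 were in a list of another cell type, 23 only in a microglial list and 90 in no list. Membership of a list does not show which cells the RNA came from. The microglial lists hold genes that other cells also express, among them Fgf2 and the 9 called genes of the mitochondrial genome. In 130 of the 141 the mean log2 level was higher in IOP replicates 1 and 4 than in replicates 2 and 3, by a median of 1.02. Among the other 11 were Hdc, Fam241a, Tgm2, Cyb5r1, H2-Ab1, H2-Aa, H2-Eb1, Bub1b, Irgm1 and Cd74. Of the 127 genes called lower, 4 were in a list of another cell type, 9 only in a microglial list and 114 in no list, and 83 were further below naïve in replicates 1 and 4.

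With IOP replicates 2 and 3 alone, 15 genes were called, 8 higher (Cryab, Grifin, S100a6, Lctl, Gja3, Lgsn, S100a16 and Crym) and 7 lower (Epb41l3, Adam22, Dact2, St6gal2, Pla2g6, Cul7 and Dgkb). This fit reuses libraries that chose the 268 genes, so the signs it gives them were largely fixed and are no check of them. Of 86 called genes chosen by the naming rules or after their values were seen, 43 stayed called in each of the 8 fits that left out 1 IOP or naïve library, and the other 43 were lost in at least 1, most often without naïve replicate 3 (37) or IOP replicate 4 (36) and least often without IOP replicate 3 (12). Among genes described below, Lcn2, Nrn1, Fcna and Ky lost their call in 7 of the 8 fits, Atf3, Gnb3, Ptgs2 and Gm10717 in 6, and Anxa1, Cfi and Serpina3n in 5. The edgeR test, run on reads recovered from the values, called 67 of the 86 genes and not the other 19. Those 19 included Dgkb, Rimbp2, Slc6a9, Atg9a and Slc40a1, with edgeR adjusted p from 0.0554 (Slc40a1) to 0.0969 (Dgkb). A further 710 genes lay above every naïve library in IOP replicates 1 and 4 only.

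**Figure D2:**
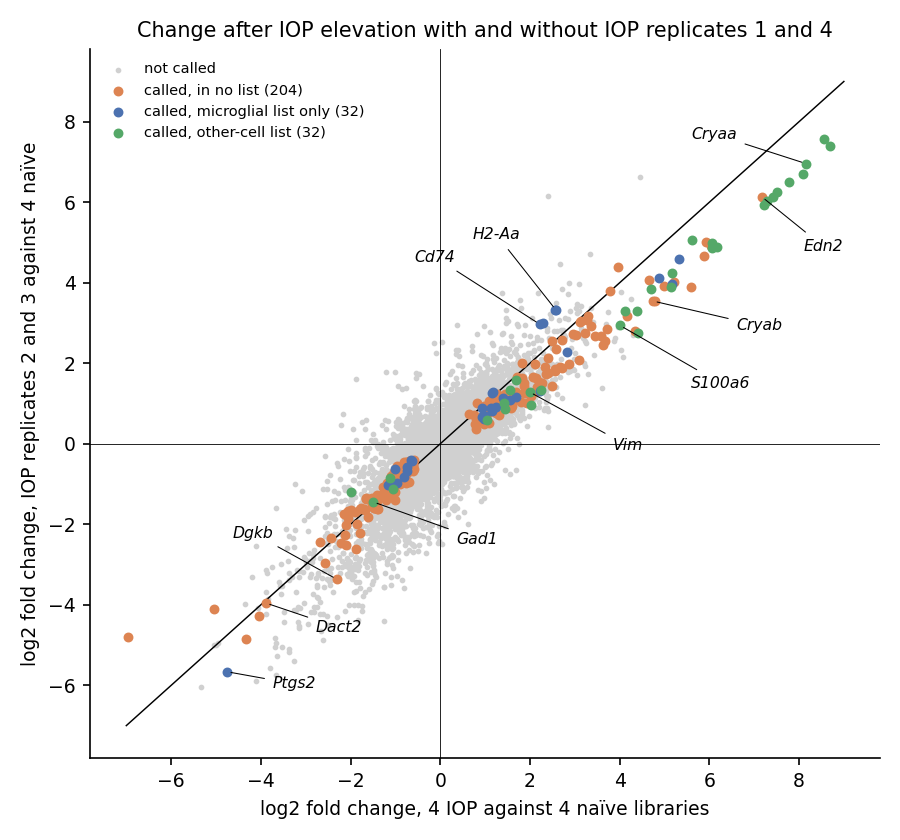
Log2 fold change of each tested gene in IOP against naïve microglia with all 4 IOP libraries (x axis) and with IOP replicates 2 and 3 alone (y axis). Grey points were not called, coloured points are the 268 called genes by list, and the diagonal marks equal change. The crystallins sit below the diagonal and MHC class II genes such as H2-Aa above it. Both axes share libraries, so agreement in sign is no check of the calls.

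Lens genes gave the largest differences. Of 23 lens genes tested, 18 were called higher and 0 lower, and the median difference on the log2 scale was 5.61 (4.85 in IOP replicates 2 and 3). Some of the 23, such as Grifin and Mip, passed the filter only through the IOP libraries. Members low in IOP could not pass that way, so the absence of lower calls and the size of the median were partly fixed. The summed share above holds all 27 lens genes without the filter. Cryaa, the small heat shock chaperone αA-crystallin, was at 194, 1144, 60.0 and 37.1 in naïve replicates 1 to 4 and at 92768, 23101, 15315 and 102542 in IOP replicates 1 to 4. Every IOP library was above every naïve one, and replicates 1 and 4 were again the highest. The log2 fold change of Cryaa was 8.15 (SE 1.34, adjusted p = 0.00206).

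The same order of libraries recurred through the lens genes. Crybb2, a β-crystallin of the lens fibre, had IOP values of 38594, 8892, 5187 and 42831 and naïve values of 81.7, 221, 17.7 and 6.50. Mip, the water channel aquaporin-0 of lens fibres, reached 294, 63.5, 89.6 and 252 against 0, 16.3, 1.69 and 4.64, a log2 fold change of 5.16 (SE 1.04, adjusted p = 0.0112). Both were highest in IOP replicates 1 and 4, and both had no overlap between groups. Grifin, a galectin-related protein of the lens, rose from 1.78, 13.1, 0 and 0 to 892, 208, 126 and 986 and was called also in replicates 2 and 3 alone, at 6.03. For genes this near 0 in naïve libraries the size of the fold depends on the 1 added before taking logs, and 3 reads correspond to 2.45 to 3.28 normalized counts.

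Cryab, the αB-crystallin that lens and stressed glia both make, had the lowest adjusted p of all genes. It was at 431, 805, 431 and 324 in naïve and at 27846, 6735, 4475 and 30144 in IOP libraries, a log2 fold change of 4.75 (SE 0.46, adjusted p = 1.86e-05) that was 3.55 in replicates 2 and 3. The 3 γ-crystallins Crygb, Crygc and Crygd are neighbours on chromosome 1. Crygb had naïve values of 25.7, 36.8, 31.2 and 9.29 and IOP values of 8496, 1583, 1338 and 8928, and Crygc was at 22.2, 22.9, 16.0 and 0.929 and 4888, 983, 665 and 5031. Crygd was at 7.10, 35.1, 4.22 and 0.929 in naïve and 1051, 227, 198 and 1214 in IOP libraries. The 3 genes had the same order of IOP libraries, with replicates 1 and 4 well above 2 and 3.

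The promoter windows of these 3 γ-crystallin genes, from 250 bases before to 50 bases after the transcription start in RefSeq (GRCm38.p6), are shown because the genes shared this order of libraries. Capitals mark TATATA, a motif chosen after the sequences were read and searched on both strands.
Crygb, chr1:65082241-65082540, minus strand: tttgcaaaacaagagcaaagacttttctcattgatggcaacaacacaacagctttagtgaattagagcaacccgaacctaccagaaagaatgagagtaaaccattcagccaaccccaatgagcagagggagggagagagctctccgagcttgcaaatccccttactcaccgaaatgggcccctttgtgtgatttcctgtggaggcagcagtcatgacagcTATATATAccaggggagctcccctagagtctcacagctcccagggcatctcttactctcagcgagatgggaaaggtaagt
Crygc, chr1:65073483-65073782, minus strand: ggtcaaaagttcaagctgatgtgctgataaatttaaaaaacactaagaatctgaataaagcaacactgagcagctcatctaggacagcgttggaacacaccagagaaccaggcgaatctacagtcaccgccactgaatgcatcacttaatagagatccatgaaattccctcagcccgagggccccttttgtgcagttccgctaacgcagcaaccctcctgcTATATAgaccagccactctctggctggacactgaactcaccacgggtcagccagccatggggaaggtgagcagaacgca
Crygd, chr1:65063391-65063690, minus strand: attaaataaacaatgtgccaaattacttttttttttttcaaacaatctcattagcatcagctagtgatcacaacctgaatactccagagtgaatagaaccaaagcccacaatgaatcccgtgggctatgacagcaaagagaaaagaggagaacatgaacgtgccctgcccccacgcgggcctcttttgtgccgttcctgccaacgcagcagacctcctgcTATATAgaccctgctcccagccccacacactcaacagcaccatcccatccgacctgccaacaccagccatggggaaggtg
The motif began at -30 and -28 (overlapping) in Crygb, at -29 in Crygc and at -30 in Crygd, counted from the start site. It was present in 5.94% of 27025 promoter windows of the same length. Compared base by base from the start site, without gaps or shifts, Crygb matched Crygc at 26% and Crygd at 31.3% of positions. Crygc matched Crygd at 30.3%. The bases around the motif were alike in Crygc and Crygd but lay out of register, at -29 and -30. These shares therefore understate how alike the windows are.

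Aldh3a1, Edn2 and Fgf2 rose along with the lens genes. Aldh3a1, an aldehyde dehydrogenase abundant in corneal epithelium, was at 14.2, 0, 0 and 0 in naïve and 1409, 426, 329 and 1522 in IOP libraries, a log2 fold change of 8.55 (SE 1.20, adjusted p = 0.000763), and was the only 1 of 15 ciliary, iris and corneal epithelium genes called. Edn2, which stressed photoreceptors release, was at 0, 9.81, 0 and 0 in naïve and 569, 115, 139.6 and 495 in IOP libraries, with a log2 fold change of 7.17 (SE 0.98, adjusted p = 0.000559). Fgf2, a growth factor raised in injured photoreceptors and Müller glia, was nearly constant in naïve libraries at 140.3, 129, 145 and 128 and stood at 1323, 904, 480.0 and 1569 after IOP elevation, 2.84 (SE 0.41, adjusted p = 0.000861) on the log2 scale. In all 3 genes the 4 IOP libraries were above the 4 naïve ones, with replicates 1 and 4 highest.

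Lcn2, Serpina3n and Timp1, which encode secreted proteins, had the same order of IOP libraries in that replicates 1 and 4 were highest. Lcn2, the iron-siderophore binding protein lipocalin-2, was at 24, 67.0, 138 and 10.2 in naïve and 3067, 787, 504 and 3565 in IOP libraries. Serpina3n, a protease inhibitor of reactive astrocytes, was at 261, 123, 56.6 and 20.4 and 3037, 831, 611 and 2646, and Timp1, an inhibitor of metalloproteinases, at 5.33, 2.45, 7.60 and 0.929 and 565, 103, 118 and 606. Log2 fold changes were 5.16 (adjusted p = 0.0379) for Lcn2, 4.16 (adjusted p = 0.0335) for Serpina3n and 5.87 (adjusted p = 0.0181) for Timp1, and 3.97, 3.17 and 4.67 in replicates 2 and 3. Bcl3, a nuclear IκB family member and the 1 called gene of 20 in the NF-κB list, went from 20.4, 28.6, 18.6 and 1.86 to 599, 216, 259 and 771, while the median of that list was -0.19. Cfi, complement factor I, was listed at 0 in 3 naïve libraries and reached 72.4, 39.4, 28.3 and 123 in IOP libraries. Cd59a, which blocks the membrane attack complex, rose by 1.55 (adjusted p = 0.0125), and these 2 regulators were the called genes among 21 of the complement list. C3 itself, the central complement component, was not called, at 0.27 (adjusted p = 0.811).

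S100a6, a calcium-binding protein, was at 87.0, 86.6, 84.5 and 69.7 in naïve libraries and at 2632, 638, 628 and 2942 in IOP libraries, a log2 fold change of 4.01 (SE 0.49, adjusted p = 0.000227). S100a16, a relative of it, was at 381, 415, 446 and 465 and 2316, 958, 1087 and 2773, with 1.92 (SE 0.27, adjusted p = 0.000764). Both were called in replicates 2 and 3 alone too, at 2.94 and 1.26. Pdpn, the mucin-like membrane protein podoplanin, rose by 3.46 (adjusted p = 0.00229) and Anxa1, the phospholipid-binding protein annexin A1, by 2.22 (adjusted p = 0.0242). S100a8, a calgranulin of neutrophils, was at 0, 3.27, 1.69 and 0 in naïve and 46.7, 10.9, 26.4 and 64.7 in IOP libraries, 4.11 (adjusted p = 0.0128), but the edgeR test on recovered reads gave it an adjusted p of 0.156.

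Of 20 Müller glia genes, 15 were higher and 3 were called: Vim, Crym and Kcnj10. The median was 1.09, and 0.61 in replicates 2 and 3. Vim, the intermediate filament vimentin, was at 803, 919, 793 and 797 in naïve and 5336, 2456, 1656 and 5417 in IOP libraries, 1.99 (SE 0.31, adjusted p = 0.00118) on the log2 scale. Crym, the thyroid hormone-binding μ-crystallin, was at 649, 827, 826 and 787 and 6581, 2141, 1757 and 7222. Kcnj10, the potassium channel Kir4.1, differed less between IOP libraries, at 565, 684, 426 and 689 against 158, 234, 160.5 and 177, with 1.68 (SE 0.32, adjusted p = 0.00615). Other members of the list differed in direction and were not called. Glutamine synthetase Glul was at -0.15, the retinaldehyde-binding protein Rlbp1 at -0.02 and Slc1a3 at 0.75 (adjusted p = 0.231). Gfap, the filament of astrocytes and reactive Müller glia, was at 140.3, 166, 194 and 592 and 2469, 866, 542 and 2283, with a log2 fold change of 2.48 (SE 0.72, adjusted p = 0.0910), and overlapped between groups through naïve replicate 4 and IOP replicate 3.

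Of 18 RGC genes, 15 were higher and 3 were called, with a median of 0.69 (0.13 in replicates 2 and 3). Sncg, the RGC marker γ-synuclein, was at 211, 198, 209 and 284 in naïve and 809.7, 463, 438 and 810.1 in IOP libraries, 1.43 (SE 0.30, adjusted p = 0.0138) on the log2 scale. Nrn1, the neurite growth protein neuritin, rose by 1.56 (adjusted p = 0.0377) and Atf3, a transcription factor induced by axon injury, by 1.04 (adjusted p = 0.0264). Rbpms, which marks RGCs as a class, was not called although its groups did not overlap, at 64.8, 76.0, 46.5 and 82.7 and 212, 93.1, 141 and 83.3. Of 26 rod genes 21 were higher and 0 called in limma and edgeR (2 higher at an unadjusted p under 0.05 in limma, and 2 called in DESeq2), with a median of 0.24 (0.05 in replicates 2 and 3). The rod transducin Gnat1 was at a log2 fold change of 0.33. The 1 called cone gene of 14 was Gnb3, a transducin β subunit found in cones and ON bipolar cells, at 1.44 (adjusted p = 0.0378). The cone arrestin Arr3 was not called, at 0.89 (adjusted p = 0.280). The part of other cells' RNA in these rises was not tested beyond the fits with and without IOP replicates 1 and 4.

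**Figure D3:**
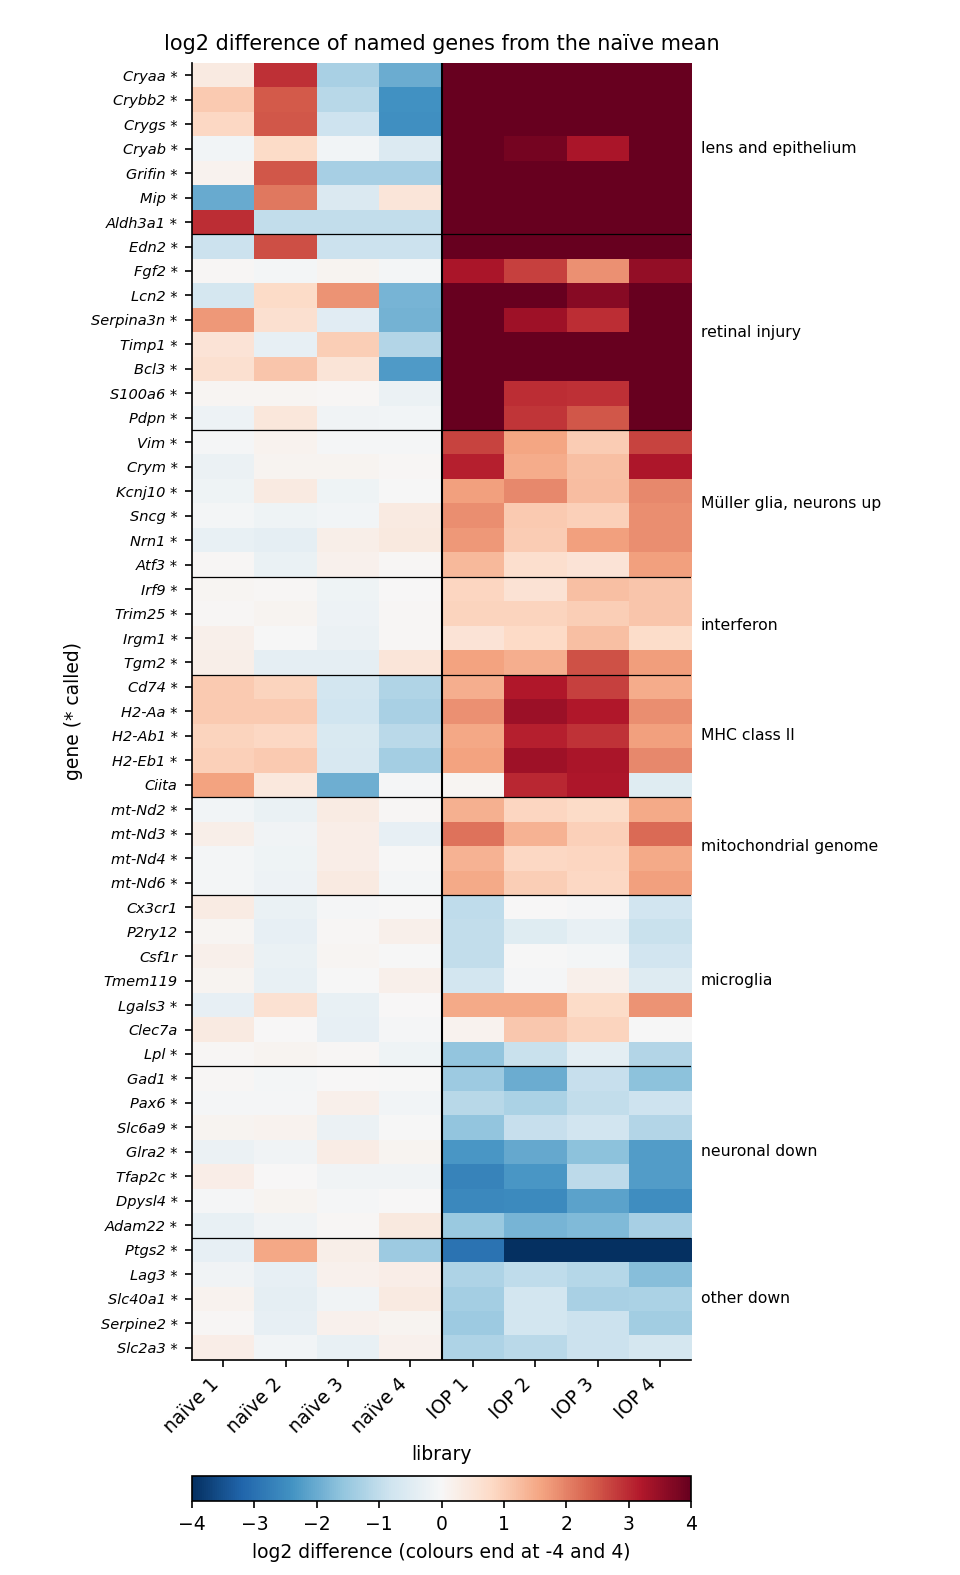
Difference of log2(normalized count + 1) from the mean of the 4 naïve libraries for named genes (rows) in each naïve and IOP library (columns), with red above and blue below naïve, colours ending at -4 and 4, and asterisks on called genes. Lens genes reach the end of the colour scale in nearly every IOP library, most injury and Müller glia genes are darkest in IOP replicates 1 and 4, MHC class II genes in replicates 2 and 3, and neuronal genes that fell are blue in all 4 IOP libraries.

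Transcripts of the mitochondrial genome were higher throughout. All 13 protein-coding genes were above naïve without overlap, 9 of 13 were called, and the median log2 fold change was 0.98 (0.70 in replicates 2 and 3). Together they held 4.23, 3.74, 4.87 and 4.07% of counts in naïve replicates 1 to 4 and 10.6, 6.70, 6.64 and 11.2% in IOP replicates 1 to 4. mt-Nd3, a complex I subunit, was at 2750.1, 2133, 2820 and 1863 in naïve and 10535, 6130.3, 4559 and 11263 in IOP libraries, with a log2 fold change of 1.69 (SE 0.27, adjusted p = 0.00177). mt-Nd4, a larger complex I subunit, was at 51184, 48172, 64291 and 53513 and 140833, 96757, 98839.5 and 155044, with 1.16 (SE 0.22, adjusted p = 0.00615). IOP replicates 1 and 4 were highest in both, and mt-Nd2 and mt-Nd6 had the same order. Of 41 respiratory chain genes in the nucleus, 31 were higher and 0 were called in limma, edgeR and DESeq2 (8 higher at an unadjusted p under 0.05 in limma), with a median of 0.24. The sign of the mitochondrial list was positive under upper-quartile, quantile and homeostatic rescaling alike.

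A set of predicted genes on chromosomes 2, 9 and 14 also rose. The mean log2 level of IOP replicates 1 and 4 was above that of 2 and 3 by 0.18 in Gm10800 to 0.65 in Gm10719. Gm10800 was at 138, 61.3, 147 and 62.2 in naïve and 816, 668, 912 and 957 in IOP libraries, 3.13 (SE 0.54, adjusted p = 0.00266) on the log2 scale. Gm10719 was at 116, 59.6, 103 and 58.5 and 785, 418, 668 and 880.1, with 3.03 (SE 0.48, adjusted p = 0.00165). Gm10717, Gm10718, Gm10721, Gm10801 and Gm21738 rose by 2.70 to 3.30. All 4 IOP libraries were above the 4 naïve ones in each of the 7. They are predicted gene models of repeated sequence and were named after their values were seen, so reads may be split between copies and the value of any 1 of them is uncertain.

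**Figure D4:**
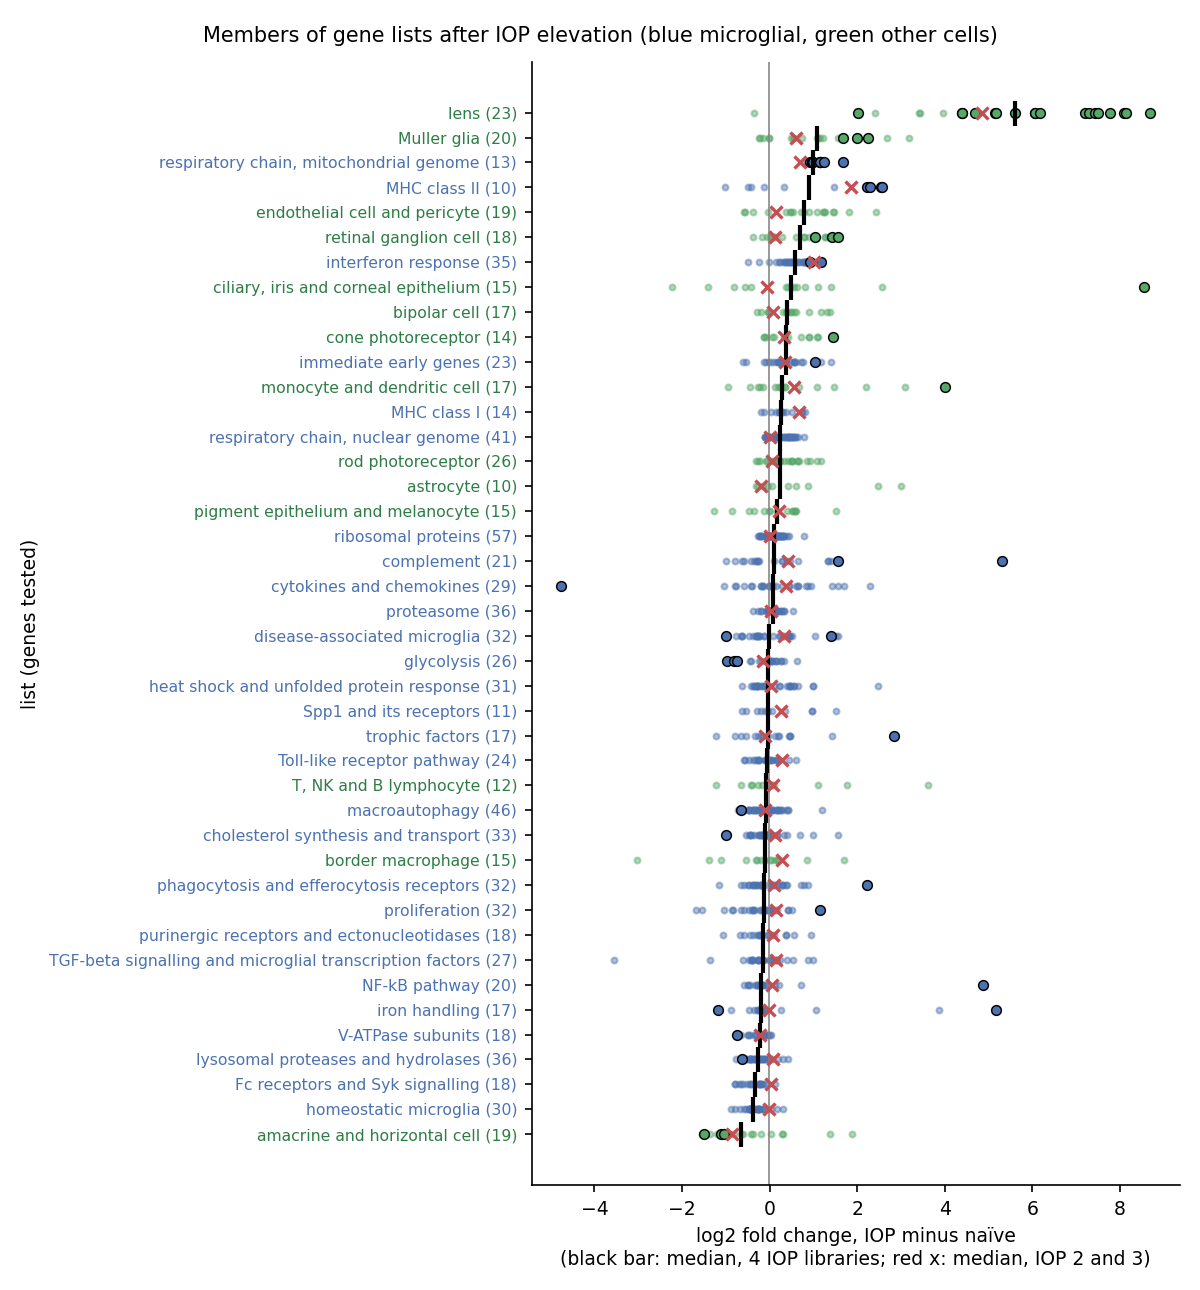
Log2 fold change of every tested member (points, called members outlined) of each gene list with 10 or more tested genes, with the median over all 4 IOP libraries (black bar) and over IOP replicates 2 and 3 (red cross). The grey line is the median of all genes. The lens list has a median of 5.61 and the amacrine and horizontal cell list, at the bottom, -0.65, while most microglial lists lie near the grey line.

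Genes of MHC class II, the complex that presents peptides to CD4 T cells, were highest in IOP replicates 2 and 3. Of 10 genes in the list 4 were called higher and 0 lower, with a median of 0.90 and 1.86 in replicates 2 and 3. The called genes were H2-Aa, H2-Ab1 and H2-Eb1, which encode the chains of the complex, and Cd74, the invariant chain that escorts them. H2-Aa was at 4605, 4572, 1265 and 897 in naïve replicates 1 to 4 and 7777, 23884, 20576 and 7981 in IOP replicates 1 to 4, a log2 fold change of 2.58 (SE 0.60, adjusted p = 0.0282). Cd74 was at 25719.5, 23336, 7551 and 5410.4 and 34226, 116473, 82608 and 34953, with 2.22 (SE 0.57, adjusted p = 0.0461). IOP replicates 2 and 3 were highest here, the reverse of the lens genes, and naïve replicates 1 and 2 were above 3 and 4, but no IOP library overlapped a naïve one.

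H2-Ab1 was at 11681, 11065, 4089 and 2961 in naïve and 18450, 54140, 47026 and 19576 in IOP libraries, and H2-Eb1 at 2646, 2863, 876 and 538 and 4208, 14283, 13344 and 5239.6. In replicates 2 and 3 alone the log2 fold changes were 3.32 for H2-Aa, 3.00 for H2-Ab1, 3.33 for H2-Eb1 and 2.97 for Cd74, though none passed the adjusted threshold with 2 libraries. On recovered reads edgeR called none of the 4, with adjusted p from 0.0675 for H2-Ab1 to 0.115 for Cd74, whereas DESeq2 called all 4. Of the other 6 genes 4 were lower in limma, among them H2-Oa, a chain of the H2-O inhibitor of peptide loading, at 849.5, 721, 806 and 1022 in naïve and 251, 520.1, 607 and 370.5 in IOP libraries without overlap, -1.02 (adjusted p = 0.0738), and DESeq2 called H2-Oa lower. In limma the call of H2-Aa and H2-Ab1 was lost in 4 of the 8 leave-one-out fits, those without naïve replicate 3 or 4 or IOP replicate 2 or 3, with adjusted p up to 0.130 and 0.106. That of H2-Eb1 was lost in 5 and that of Cd74 in 6, with adjusted p up to 0.151 and 0.197. Ciita, the transactivator of class II genes, was at 141, 61.3, 11 and 44.6 and 48.5, 379, 445 and 32.8 and was not called, with only IOP replicates 2 and 3 above naïve. The peptide-loading genes H2-DMa and H2-DMb1 were at -0.12 and 0.33.

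Class II genes are also made by border macrophages, dendritic cells and B cells. The 15 border macrophage genes had 0 calls in limma, edgeR and DESeq2 (1 higher and 2 lower at an unadjusted p under 0.05 in limma) and a median of -0.10, and their summed share was 0.130, 0.346, 0.209 and 0.142% in IOP replicates 1 to 4 and 0.236, 0.257, 0.125 and 0.211% in naïve replicates 1 to 4. Mrc1, the mannose receptor of these macrophages, was at 4870.4, 17615, 9985 and 5820.1 in IOP and 10863, 11738, 6164 and 10719.6 in naïve libraries, and the scavenger receptor Cd163 at 1968, 4585, 979 and 1642 and 2128, 1970.0, 1017 and 2337. Both were highest in IOP replicate 2, the library that was also highest in Cd74. The monocyte receptor Ccr2 was at 155, 404, 464 and 143 against 243, 239, 193 and 55.7, highest in IOP replicate 3. Monocyte and dendritic cell genes had 1 call of 17 (S100a6), 12 were higher, and the median was 0.27 (0.55 in replicates 2 and 3). Their summed share was 0.0312, 0.0235, 0.0207 and 0.0333% in IOP and 0.0161, 0.0175, 0.0121 and 0.0149% in naïve replicates 1 to 4, without overlap, and their mean log2 level was 6.63, 7.22, 7.15 and 7.00 in IOP replicates 1 to 4, highest in 2 and 3 as for class II genes, against 6.26, 6.80, 6.46 and 5.86 in naïve replicates 1 to 4. There were 0 calls among lymphocyte genes (12) in all 3 tests, with 1 higher and 1 lower at an unadjusted p under 0.05 in limma. The part of these cells in the class II result was not tested.

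The promoter windows of H2-Aa and H2-Eb1 are shown because class II promoters are known for a conserved CCAAT element near the start. Capitals mark CCAAT or its reverse complement ATTGG.
H2-Aa, chr17:34287774-34288073, minus strand: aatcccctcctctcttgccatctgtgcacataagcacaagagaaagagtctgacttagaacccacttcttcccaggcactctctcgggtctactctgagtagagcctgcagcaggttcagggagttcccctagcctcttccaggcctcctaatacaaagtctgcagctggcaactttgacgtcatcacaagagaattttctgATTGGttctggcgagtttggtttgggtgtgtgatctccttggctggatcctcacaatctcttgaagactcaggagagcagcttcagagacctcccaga
H2-Eb1, chr17:34305617-34305916, plus strand: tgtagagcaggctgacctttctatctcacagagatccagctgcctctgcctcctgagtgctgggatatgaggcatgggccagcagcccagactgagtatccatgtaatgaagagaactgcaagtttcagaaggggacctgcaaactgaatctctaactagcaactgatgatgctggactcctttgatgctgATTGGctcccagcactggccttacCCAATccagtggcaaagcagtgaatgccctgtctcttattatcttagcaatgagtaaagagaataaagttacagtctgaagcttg
The element began at -48 in H2-Aa and at -59 and -35 in H2-Eb1, and 37.9% of all 27025 windows held it on either strand.

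Most interferon-responsive genes were higher. Of 35 genes 32 were higher, 8 were above naïve without overlap and 2 were called higher, with 17 higher and 0 lower at an unadjusted p under 0.05. Over all 15880 genes 1113 were above naïve without overlap, 0.888% were called higher and 6.37% were higher at an unadjusted p under 0.05. The median of the list was 0.57 (1.02 in replicates 2 and 3). Irf9, a transcription factor of the type I response and 1 of the called genes, was at 1913, 1871, 1611 and 1836 in naïve and 3245, 2714, 4124 and 3868 in IOP libraries, 0.93 (SE 0.19, adjusted p = 0.0115) on the log2 scale. All 4 IOP libraries were above naïve, and IOP replicate 3 was the highest. Without naïve replicate 3 the adjusted p of Irf9 was 0.0517, and it was not called without IOP replicate 4 either. Classical effector genes were not called: Ifit2 was at 0.58 (adjusted p = 0.521), Ifit3 at 0.81 (adjusted p = 0.189), Isg15 at 0.81 (adjusted p = 0.322), Oasl2 at 0.73 (adjusted p = 0.247) and Cxcl10 at 0.45 (adjusted p = 0.734). In each of these 5, IOP replicate 3 had the highest value of the 4 IOP libraries, and Ifit3 was at 2026, 2811, 5321 and 2435 there against 2235, 2097, 964 and 1740.3 in naïve libraries. The 14 MHC class I genes had 0 calls in limma, edgeR and DESeq2 and 0 at an unadjusted p under 0.05 in limma. Their median was 0.26 (0.68 in replicates 2 and 3), and H2-K1 was at 0.23 (0.69 in replicates 2 and 3). Under homeostatic rescaling 3 of the 14 were called higher. The median of the interferon list was positive under the 3 rescalings tried, and 8 of 35 genes were called under homeostatic rescaling.

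Trim25, Irgm1, Tgm2, Hdc and Plp2 were chosen after their values were seen and are called genes with no overlap between groups. Trim25, a ubiquitin ligase that activates RNA sensing, was at 1014, 1055, 853 and 1006 in naïve and 1814, 1833, 1919.9 and 2124 in IOP libraries, 0.97 (SE 0.20, adjusted p = 0.0125) on the log2 scale. Irgm1, an interferon-inducible GTPase, was at 2123, 1848, 1578 and 1894 and 2705, 3249.6, 4274 and 3062, with 0.82 (SE 0.20, adjusted p = 0.0370). Tgm2, the crosslinking enzyme transglutaminase 2, was at 467, 307, 308 and 548 and 1209, 1083, 2301 and 1253, with 1.82 (SE 0.36, adjusted p = 0.00948). The mean log2 level of IOP replicates 1 and 4 minus that of 2 and 3 was 0.07 for Trim25, -0.37 for Irgm1 and -0.36 for Tgm2. Irgm1 lost its call in each of the 8 fits that left out 1 library, with adjusted p from 0.0537 to 0.133, and Tgm2 in none of them. Hdc, which makes histamine from histidine, was at 53.3, 30.2, 38.9 and 58.5 in naïve and 219.8, 268, 257 and 266 in IOP libraries, 2.50 (SE 0.42, adjusted p = 0.00217). Plp2, a small membrane protein, was at 75.5, 53.9, 77.7 and 54.8 and 289, 246, 267 and 331, with 2.11 (SE 0.34, adjusted p = 0.00177). Bub1b, a mitotic checkpoint kinase and the 1 called gene of 32 in the proliferation list, rose by 1.14 (adjusted p = 0.0339) but lost its call in each of the 8 fits too, with adjusted p from 0.0510 to 0.153, while Mki67, a marker of cycling cells, was at -0.87 (adjusted p = 0.525) and the list median at -0.12.

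The promoter window of Irgm1 is shown for its interferon-type elements, which capitals mark as GAAANNGAAA.
Irgm1, chr11:48871371-48871670, minus strand: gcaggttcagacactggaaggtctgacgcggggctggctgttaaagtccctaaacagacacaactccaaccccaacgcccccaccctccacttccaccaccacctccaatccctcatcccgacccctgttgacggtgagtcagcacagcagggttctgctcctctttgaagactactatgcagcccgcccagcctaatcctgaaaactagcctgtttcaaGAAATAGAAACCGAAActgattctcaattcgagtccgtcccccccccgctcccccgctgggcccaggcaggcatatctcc
The 2 overlapping matches began at -30 and -24, and 3.51% of all windows held the motif on either strand.

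**Figure D5:**
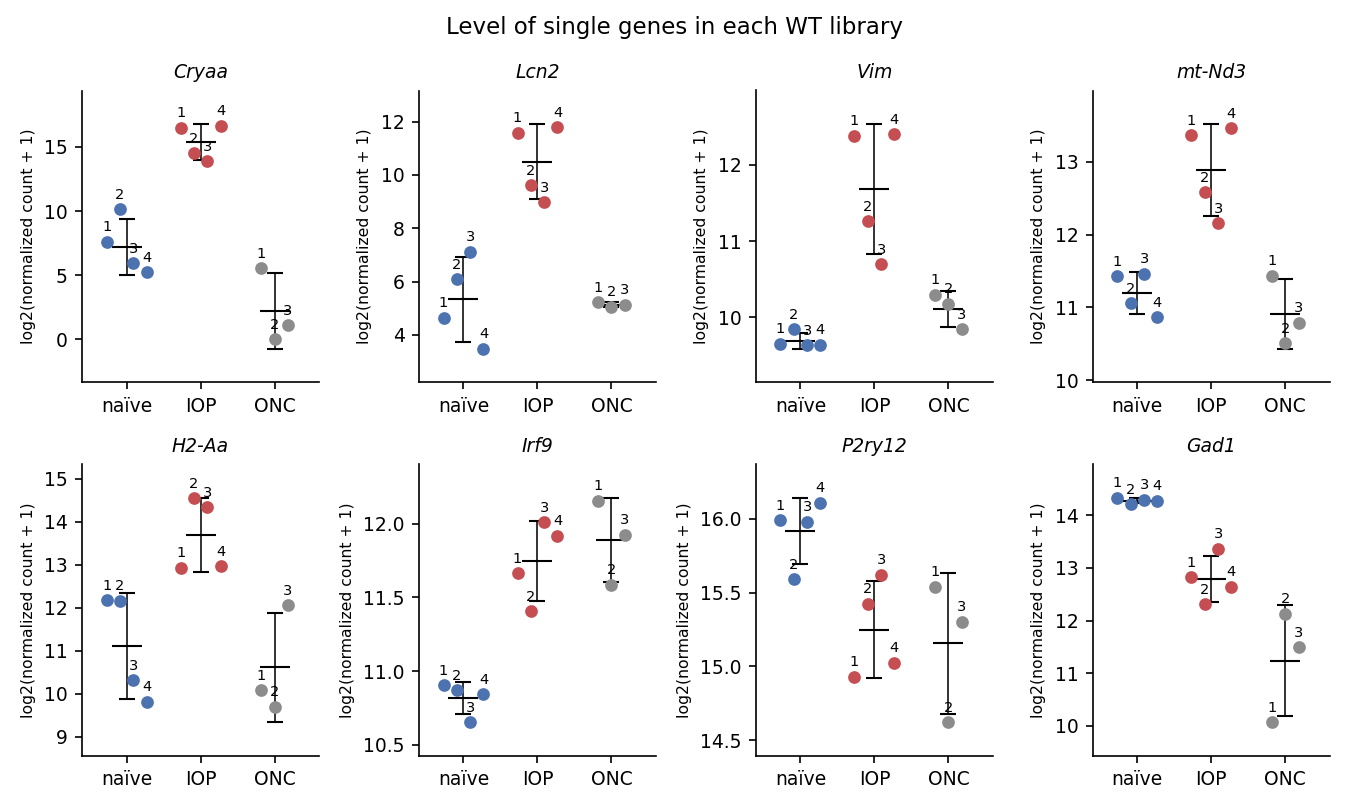
Level of 8 genes as log2(normalized count + 1) in each naïve, IOP and ONC library, with replicate numbers beside the points and bars for the mean and SD of each group. Cryaa, Lcn2, Vim and mt-Nd3 are highest in IOP replicates 1 and 4, H2-Aa in replicates 2 and 3, Irf9 in IOP replicate 3 with overlapping IOP and ONC values, and Gad1 is below naïve in every IOP library.

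Most homeostatic microglial genes were lower by a small amount and none was called. Of 30 genes 27 were lower, 3 of them at an unadjusted p under 0.05 in limma, edgeR called 0 and DESeq2 1, and the median was -0.37 with all 4 IOP libraries and -0.01 with replicates 2 and 3. P2ry12 was at 65095, 49336, 64603 and 70733 in naïve and 31205, 43958, 50359 and 33345 in IOP libraries, -0.67 (SE 0.31, adjusted p = 0.335) on the log2 scale. Cx3cr1, the gene whose locus carries GFP, was at 67878, 44958, 52122 and 52866 and 26836, 54612, 51592 and 31626, with -0.45 (SE 0.35, adjusted p = 0.605). The IOP libraries below the naïve range were replicates 1 and 4 in Cx3cr1, and in P2ry12 replicate 2 lay below it too. Csf1r, the receptor on which microglia depend, was at -0.45 (adjusted p = 0.599), Tmem119 at -0.27 (adjusted p = 0.758) and Sall1 at -0.25 (adjusted p = 0.703). In replicates 2 and 3 these 3 were between -0.04 and 0.08. Slc2a5, the fructose transporter of microglia, was at 5905, 9001, 11218 and 7532 in IOP and 8004, 6542, 7483 and 7006 in naïve libraries, at 0.18 (adjusted p = 0.885).

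Genes of disease-associated microglia, the state described around amyloid and dying neurons, did not move together. Of 32 genes 1 was called higher and 1 lower, 16 were above and 16 below 0, and the median was -0.02 (0.33 in replicates 2 and 3). Under homeostatic rescaling it was 0.32, as was the median of all genes. Lgals3, the galectin of activated phagocytes, was at 494, 949, 502 and 632 in naïve and 1771, 1784, 1051 and 2156 in IOP libraries, 1.40 (SE 0.32, adjusted p = 0.025). Lpl, lipoprotein lipase, was at 2801, 2912, 2799.7 and 2422 and 903, 1482, 2101 and 1221, with -1.002 (SE 0.21, adjusted p = 0.0146). Neither overlapped between groups. Leaving out 1 library ended the call of Lgals3 in 6 of 8 fits and that of Lpl in 4, with adjusted p up to 0.0999 and 0.0783. Clec7a, a receptor for β-glucans, was at 4491, 8499, 7618 and 4033 in IOP and 5216, 4081, 3237 and 3976 in naïve libraries, with only replicates 2 and 3 above naïve. Itgax was at -0.63 (adjusted p = 0.576), the protease inhibitor Cst7 at -0.24 (adjusted p = 0.754), Trem2 at -0.37 (adjusted p = 0.608) and the NADPH oxidase subunit Cybb at 0.45 (adjusted p = 0.560). Cybb was at 4921, 15512, 12212 and 4917 in IOP replicates 1 to 4, again highest in 2 and 3. Apoe at -0.24, Gpnmb at 1.03, Cd68 at -0.12, Ctsb at -0.30 and Igf1 at -0.65 were not called and overlapped between groups.

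Spp1, the secreted glycoprotein osteopontin that the study deleted in its other arm, was at 1228, 1518, 334 and 492 in naïve and 2353, 2409.8, 1343 and 2772 in IOP libraries. The IOP values were higher in 3 of 4 libraries than every naïve value, and the exact permutation test (two-sided, n = 4 and 4) gave p = 0.0571, where the smallest p this design allows is 0.0286. The log2 fold change was 1.53 (SE 1.58, adjusted p = 0.72), an error that pools the spread of all 6 groups of the series, and from the 8 libraries alone it was 1.53 (SE 0.46, adjusted p = 0.10). Cd44, a receptor of Spp1, was at 995, 849.8, 780.4 and 870.2 and 1459, 1714, 2080.2 and 1595, all 4 IOP libraries above naïve, with a log2 fold change of 0.96 (SE 0.29, adjusted p = 0.107) over all groups. From the 8 libraries alone the adjusted p of Cd44 was 0.0132. Itgav, the αV integrin chain that also binds Spp1, was at 0.05 (adjusted p = 0.965). The list of Spp1 and its receptors had 0 calls of 11 in limma and in edgeR (1 higher at an unadjusted p under 0.05 in limma) and 1 higher in DESeq2.

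Cytokine genes had no called rise. Of 29 cytokines, chemokines and their enzymes 16 were higher, 0 were called higher and 1 was called lower in limma, with 1 in each direction at an unadjusted p under 0.05, while edgeR called 0 and DESeq2 1 lower. That gene was Ptgs2, the inducible prostaglandin synthase COX-2, at 39.1, 147, 58.3 and 17.6 in naïve and 5.50, 0, 0 and 0.886 in IOP libraries, -4.76 (SE 1.11, adjusted p = 0.0282) on the log2 scale. At these low counts the test on recovered reads in edgeR gave Ptgs2 an adjusted p of 0.111. Il1b, an interleukin of activated macrophages, was at 51.3, 197, 216 and 46.1 in IOP and 132, 118, 112 and 101.2 in naïve libraries, above naïve in replicates 2 and 3 and below it in replicates 1 and 4. Tnf was at 0.88 (adjusted p = 0.512) and the chemokine Ccl5 at -0.77 (adjusted p = 0.371). The stress genes Fos at 0.05 and Hmox1 at -0.14 were not called, and 0 of 31 heat shock and unfolded protein response genes were in limma and edgeR, against 1 higher in DESeq2 and 4 higher and 1 lower at an unadjusted p under 0.05 in limma.

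Slc40a1, Lag3, Serpine2 and Mmp9 fell. Slc40a1, the iron exporter ferroportin, was at 7363, 5204, 6011 and 8470.4 in naïve and 2596, 3953, 2705 and 2765 in IOP libraries, -1.17 (SE 0.28, adjusted p = 0.0310) on the log2 scale. Lag3, an MHC class II binding receptor, was at 999.6, 882, 1239.8 and 1331 and 467, 542, 502 and 333, with -1.27 (SE 0.27, adjusted p = 0.0150). Serpine2, the protease inhibitor nexin-1, was at 23506, 18364, 25926 and 24748 and 8421, 13808, 12768 and 8677, with -1.11 (SE 0.22, adjusted p = 0.0115). The groups did not overlap in any of the 3, and IOP replicates 2 and 3 alone gave -1.02, -1.07 and -0.79. Mmp9, a gelatinase and a member of the neutrophil list, fell from 2542, 2169, 2112 and 2159 to 407, 853, 1105 and 267, furthest in replicates 1 and 4. Pla2g6, a phospholipase, was called also in replicates 2 and 3 alone, at -1.62, and Fcna, a ficolin of the lectin complement pathway, fell from 185, 345, 106 and 689 to 9.16, 81.0, 0 and 33.7. Serpine2 and Lag3 each lost their call in 3 of the 8 fits that left out 1 library and Slc40a1 in 6, with adjusted p up to 0.0610, 0.0718 and 0.126. Under homeostatic rescaling 5 genes in all were called lower.

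Of 26 glycolysis genes 3 were called lower and 0 higher. The glucose transporter Slc2a3 fell by 0.97 (adjusted p = 0.0217), the phosphofructokinase Pfkm by 0.82 (adjusted p = 0.0242) and the lactate dehydrogenase chain Ldhb by 0.75 (adjusted p = 0.0353). All 3 are also expressed in neurons, 4 to 7 of the 8 fits that left out 1 library did not call them, and the list median was -0.03. Of 18 V-ATPase subunits, which acidify lysosomes, 16 were lower, 6 had no overlap and 1 was called: Atp6v1a, at 7412, 9875, 8050.4 and 7364 in naïve and 4474, 4675, 5432 and 4875 in IOP libraries. Of 36 lysosomal enzymes 32 were lower and 1 was called, the cathepsin Ctsf at -0.62 (adjusted p = 0.0253). The median of the lysosomal list was -0.27 with all libraries and 0.08 in replicates 2 and 3, whereas that of V-ATPase was -0.21 and -0.22. Ctss, the cathepsin abundant in microglia, was at 101062, 181052, 163238 and 107601 in IOP and 201875, 159809, 195035 and 202559 in naïve libraries, not called. Macroautophagy genes had 31 of 46 lower and 1 called, Atg9a, the membrane scramblase of early autophagosomes, at 2504, 2466, 2584 and 2156 and 1220.1, 1781, 1900.1 and 1394, with -0.64 (SE 0.15, adjusted p = 0.0264). Leaving out 1 library ended the call of Atp6v1a in 7 of 8 fits, that of Ctsf in 6 and that of Atg9a in 5, with adjusted p up to 0.112, 0.124 and 0.127. Under homeostatic rescaling the medians of the V-ATPase, lysosomal and macroautophagy lists were 0.13, 0.07 and 0.26. All 3 lay below the median of all genes in that fit, 0.32.

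Gad1, Slc6a9 and Pax6, which inhibitory retinal neurons express, were lower in all 4 IOP libraries. Of 19 amacrine and horizontal cell genes 14 were lower and 3 were called lower, with a median of -0.65 (-0.86 in replicates 2 and 3). Their summed share, in which abundant genes weigh most, was 0.208, 0.203, 0.202 and 0.205% in naïve and 0.118, 0.102, 0.133 and 0.113% in IOP replicates 1 to 4. Their mean log2 level was 8.73, 8.63, 8.95 and 9.28 in naïve and 8.84, 8.15, 8.28 and 8.47 in IOP replicates 1 to 4. By that measure the groups overlapped through IOP replicate 1. Gad1, the enzyme that makes GABA, was at 20726, 19056, 20145 and 19868 in naïve and 7259, 5092, 10559 and 6385 in IOP libraries, -1.50 (SE 0.30, adjusted p = 0.0119) on the log2 scale. Slc6a9, the glycine transporter GlyT1, was at 3892, 3982, 3057 and 3598 and 1207, 1904, 2112 and 1614, with -1.11 (SE 0.27, adjusted p = 0.0370). Pax6, a transcription factor of amacrine cells, was at 6202, 6143, 7301 and 5891 and 2956, 2672, 3207 and 3579, with -1.04 (SE 0.21, adjusted p = 0.0112). In all 3 every IOP library was below every naïve one, also replicates 1 and 4, in which rod genes were highest. Gad1 was called in each of the 8 fits that left out 1 library, Pax6 in all but that without naïve replicate 3 (adjusted p = 0.0510) and Slc6a9 in 1. Under homeostatic rescaling 0 of the 19 were called and the median was -0.31.

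Further genes outside the lists, several of them neuronal, fell in the same libraries. Dpysl4, a collapsin response mediator protein, was at 4905, 5429, 4915 and 5093 in naïve and 856, 873, 1141 and 910.2 in IOP libraries, -2.44 (SE 0.36, adjusted p = 0.000861). Glra2, a glycine receptor subunit, was at 686, 737, 993 and 869 and 161, 195, 259 and 174, with -2.06 (SE 0.34, adjusted p = 0.00217), and Tfap2c, a transcription factor of amacrine cells, at 688, 583, 524 and 524 and 89.8, 115, 281 and 122. In each of these 3 the groups did not overlap and no library, left out, ended the call. Adam22, a synaptic receptor for LGI1, was at 2508, 2774, 3214 and 4064 and 1112, 855, 902 and 1239.9, with -1.60 (SE 0.24, adjusted p = 0.000861). Epb41l3, a membrane skeleton protein, was at 4454, 4707, 4309 and 4745 and 2018, 2240.1, 2041 and 1895, with -1.15 (SE 0.16, adjusted p = 0.000518). Both were called in replicates 2 and 3 alone, at -1.81 and -1.09.

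Dact2, which modulates Wnt and TGF-β signalling, was at 104, 291, 181 and 228 in naïve and 10.1, 12, 10.4 and 15.1 in IOP libraries, with a log2 fold change of -3.89 (SE 0.58, adjusted p = 0.000955), the largest fall that was called both with and without replicates 1 and 4. St6gal2, a sialyltransferase, fell by 1.78 (adjusted p = 0.00253), Dgkb, a diacylglycerol kinase of neurons, by 2.31 (adjusted p = 0.0228) and Cul7, a ubiquitin ligase scaffold, by 1.01 (adjusted p = 0.00942). The iodide transporter Slc5a5 fell by 2.21 (adjusted p = 0.00612), Coch, which encodes cochlin, by 2.68 (adjusted p = 0.0460) and Rimbp2, a presynaptic protein, by 2.58 (adjusted p = 0.0401). Leaving out 1 library ended the call of Coch in 8 of 8 fits, that of Rimbp2 in 6 and that of Dgkb in 5, with adjusted p up to 0.141, 0.139 and 0.0874, and those of St6gal2, Cul7 and Slc5a5 in none. Ky and Gm21985 fell to 0 in 3 of 4 IOP libraries from 19.5, 17.2, 16.0 and 21.4 and 29.3, 80.1, 44.8 and 137. The edgeR test on recovered reads gave Ky an adjusted p of 0.0743 and Gm21985 of 0.114. The 6 red blood cell genes were all lower, with 0 called by limma, edgeR or DESeq2 and 1 at an unadjusted p under 0.05 in limma, and held 0.0303 to 0.0589% of counts in naïve and 0.0213 to 0.0301% in IOP libraries.

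IOP and ONC libraries differed in 3761 genes (23.7%), 2085 higher and 1676 lower in IOP, with a median of all genes of 0.11. This split became 2989 and 1009 with upper-quartile rescaling (median 0.34) and 3324 and 359 with homeostatic rescaling (median 0.77), whereas edgeR gave 1204 and 1409 and DESeq2 1981 in each direction, so values are to be read against those medians. The filter on genes used only IOP and naïve libraries. Genes expressed only after ONC could therefore not be called, whereas genes expressed only in IOP could, which favours calls higher in IOP. With no filter 1820 genes were called higher and 1433 lower in IOP. The list medians below rest on the filtered genes. The comparison uses the same 4 IOP libraries as the one with naïve microglia, and its 3 ONC libraries varied widely, with 1304, 5844 and 1963 genes called without ONC replicates 1, 2 and 3, and 2127 without IOP replicate 4. Median differences were -1.81 for interferon genes, -1.64 for disease-associated genes, -1.35 for MHC class I and -2.31 for proliferation genes, all lower in IOP. They were 2.96 for border macrophage genes, 0.80 for MHC class II and 7.60 for lens genes, all higher in IOP. Type of injury and time after injury differ together between these groups, so their parts in the differences cannot be told apart.

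Single genes had large differences in both directions. Cst7 was at 171, 405, 432 and 191 in IOP and 5794, 5573 and 5595 in ONC libraries, -4.35 (SE 0.30, adjusted p = 1.89e-08) on the log2 scale. Clec7a was at 47163, 17812 and 29792 in ONC, -2.32 for IOP minus ONC, and Itgax at 4279, 4236 and 6788, -3.60. Lpl, which fell after IOP elevation, was at 5969.7, 8331 and 7690.1 in ONC, above every naïve library. Cxcl10 was at 2609, 1367 and 1808 and Ifit3 at 9779, 9603 and 17613 in ONC, with differences of -3.24 (SE 0.52, adjusted p = 0.000426) and -2.01 (SE 0.31, adjusted p = 0.000304). H2-Aa went the other way, at 1076, 827 and 4262 in ONC, so that the 4 IOP libraries were all higher, 3.08 (SE 0.65, adjusted p = 0.00310). Cd74 and H2-Eb1 were also higher in IOP, by 3.01 and 3.35. Mrc1 at 199.97, 727 and 1459 and Stab1 at 2486, 2729.6 and 7349 were low in ONC libraries, and both were higher in IOP, by 3.81 and 1.98. Serpine2 and Lag3, both lower after IOP elevation, were at -1.58 and -2.01 for IOP minus ONC. The lens share was 0.00650, 0.00191 and 0.00269% in the 3 ONC libraries, within or below that of naïve ones, and ONC libraries had 6.60, 5.38 and 7.04% in homeostatic genes.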

How the data were processed

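RNA of FACS-isolated CX3CR1-GFP microglia was sequenced with a SMARTer kit. The authors deposited a signal value per gene, a read count divided by a library size factor. Reads were quantified with salmon per the study's methods, whereas the submitters' processing notes name STAR, DESeq2 and GRCm38. Versions are not given in the sources used here. Gene IDs matched GENCODE M21 symbols for 35436 of 35825 genes.

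WT IOP was set against WT naïve (and WT ONC) microglia with limma 3.58.1 (R 4.3.3) on log2(value + 1), fitted over all 23 libraries in 6 groups with an intensity trend. The filter was 10 or more in 3 of the 8 WT IOP and naïve libraries. Calls needed a Benjamini-Hochberg adjusted p below 0.05 and a log2 fold change beyond 0.58 in size. Fold changes of low genes are understated on this scale. The script was tested on simulated data.

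Low values were whole multiples of 1 step, so whole reads were recovered in 21 libraries, these 8 among them, for 100% of values (tolerance 0.1 reads). On the reads of those 21 libraries edgeR 4.0.16 called 179 genes, and DESeq2 1.42.0 was run too. Replicates 2 and 4 of the Spp1 knockout IOP group had no recovered reads, so both tests lacked them, whereas limma used all 23 libraries. Depth was 23678254 to 30296094 reads per library, with 3 reads worth 2.45 to 3.28 normalized counts, a floor that covers counting error only. Tables and plots used Python 3.11.15, numpy 2.4.6, pandas 2.3.3 and matplotlib 3.10.9.

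The members, 46 lists (1011 genes) and tests were chosen with earlier results of these data known, so lists have counts and medians and no test of their own. Genes were named by 4 rules: the 10 largest called rises and falls without overlap between groups; the 10 largest each way among genes called with and without IOP replicates 1 and 4, in no list of another cell type and with a mean of 100 or more; up to 4 called members per list; and a set of microglial genes given whatever their result. Other genes were named after their values were seen. Alternatives changed the pseudocount (0.5 or 5), filter, scaling, replicate block, libraries in the fit, array weights, lens or rod covariates, the fold threshold and the test. Values of a few genes are not reported here.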

Additional observations from a re-analysis of the deposited data

Results flagged for a closer look

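Each of the 137 named genes was tested in both groups for 1 library standing apart from the other 3, by the gap to its neighbour as a share of the group's range, against Dixon's critical value for 4 libraries. This gave 15 of 274 gene and group pairs, where chance flags about 1 in 20. Naïve replicate 2 held 5 of them. It was highest in Vim (0.912), Pdpn (0.898), Cfi (1) and Edn2 (1), and lowest in Ctss (0.840). Naïve replicate 4 was lowest in Ccr2 (0.841), S100a6 (0.867) and Crygc (0.866). Naïve replicate 1 was highest in Mmp9 (0.856) and Aldh3a1 (1), and naïve replicate 3 lowest in Mrc1 (0.859). Among IOP libraries, replicate 3 was highest in C3 (0.881) and Gm21985 (1), replicate 2 in Slc40a1 (0.850) and replicate 4 in Ky (1). In the 5 pairs with a value of 1 the gene was listed at 0 in the other 3 libraries.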

How the results depend on the processing

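Of the 268 calls between IOP and naïve microglia (141 higher, 127 lower), 248 kept their sign with the lens covariate. The count of calls moved by over 1.5 times in several alternatives. It was 537 (241 higher, 296 lower) with the 8 libraries alone, 1142 (560 and 582) with array weights, 497 (204 and 293) with the rod list as a covariate and 567 (304 and 263) with DESeq2. It was 118 (113 and 5) with homeostatic rescaling, which was chosen after seeing the data, and 15 (8 and 7) with IOP replicates 2 and 3 only, a fit with fewer libraries. With the lens list as a covariate limma called 0 (0 and 0), with 698 at an unadjusted p under 0.05. Lens levels separate every IOP from every naïve library, so group and covariate cannot be told apart in that fit, and it reversed Atg9a (0.060), Lgals3 (-0.031), Anxa1 (-0.17), Mip (-1.44), Crygb (-0.70), Crygc (-0.34), Cryba1 (-3.59), Crygs (-3.23), Cryaa (-2.55) and Crybb2 (-1.83). Both pseudocounts, no filter, the mean filter, quantile normalization and adjusted p alone (276) stayed within 1.5 times, as did the totals with edgeR (179, 116 and 63) and upper-quartile rescaling (212, 133 and 79), in both of which the lower calls moved by more. The causes of the other moves were not tested.

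Leaving out 1 library gave 105 to 352 calls, 58 to 173 higher and 39 to 179 lower. The counts were 142, 151, 110 and 125 without naïve replicates 1 to 4, and 105, 218, 352 and 109 without IOP replicates 1 to 4. The lowest counts came without the IOP libraries richest in lens RNA. Of IOP against ONC, 3761 calls became 7794 with array weights (the weight of ONC replicate 3 was 13.6), 0 with the lens covariate, 448 with the rod covariate and 711 with IOP replicates 2 and 3 only, and leaving out 1 library gave 1304 to 5844. Replicate numbers are shared by groups but the labels do not say that they pair libraries, and deviations of same-numbered naïve and IOP libraries correlated at -0.232 to -0.0426. With the replicate block 261 genes were called, 237 of them among the 268, and 3013 for IOP against ONC. The MHC class II difference was 1.82 as a log2 ratio of summed shares and 0.94 as a difference of mean log2 levels over the list, and the amacrine and horizontal cell difference -0.82 and -0.46. Depth leaves genes under about 3 reads without a usable fold.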

Other observations

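A set of abundant genes varied widely within both groups. Of 4855 genes with a mean of 1000 or more normalized counts, 105 had a pooled within-group SD over 1 on the log2 scale, against a median SD of 0.243. In 81 of the 105, naïve replicates 3 and 4 were above naïve replicates 1 and 2 while IOP replicates 1 and 2 were above IOP replicates 3 and 4, an order that 331 of all 4855 genes had. None of the 81 was called by limma, edgeR or DESeq2, and 0 had an unadjusted p under 0.05 in limma. They were chosen for wide spread within both groups, so the lack of calls was largely fixed by that choice. Their median deviation from the group mean was -1.61, -0.35, 0.63 and 1.35 in naïve replicates 1 to 4 and 0.95, 0.97, -0.58 and -1.35 in IOP replicates 1 to 4. Jun, a subunit of the transcription factor AP-1, was at 162, 856, 1558 and 2852 in naïve and 2318, 2760.2, 525 and 307 in IOP libraries. Naglu, a lysosomal enzyme that degrades heparan sulfate, was at 294, 946, 2078 and 3718 in naïve and 2395, 3312, 498 and 216 in IOP libraries, and Letm1, a protein of the inner mitochondrial membrane, at 112, 296, 1365 and 2794 in naïve and 2222, 1445, 212 and 280.1 in IOP libraries. By its definition this order of libraries is not that of the lens genes. Among all 105 genes, IOP replicates 1 and 4 were both above replicates 2 and 3 in 11. Over all 4855 genes, IOP replicates 1 and 4 were both above 2 and 3 in 1059 and both below in 2025.

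Lists not described above had these median log2 fold changes, beside -0.02 for all genes. In 6 microglial lists limma, edgeR and DESeq2 alike called 0 genes. These were Toll-like receptor pathway genes (-0.07, 24 genes), Fc receptors and Syk signalling (-0.32, 18 genes, of which 17 were lower), TGF-β signalling and microglial transcription factors (-0.16, 27 genes), ribosomal proteins (0.10, 57 genes), proteasome subunits (0.08, 36 genes) and purinergic receptors with ectonucleotidases (-0.14, 18 genes). At an unadjusted p under 0.05 in limma they held 0, 4, 2, 1, 2 and 1 genes, where the share over all genes was 13.8%. In the other microglial lists with at least 1 call in limma, the called genes were all described above. These were phagocytic receptors (-0.12, 1 higher of 32, Anxa1) and cholesterol synthesis and transport (-0.09, 1 lower of 33, Lpl). In iron handling (-0.21, 17 genes) Lcn2 was called higher and Slc40a1 lower. The last 2 were immediate early genes (0.37, 1 higher of 23, Atf3) and trophic factors (-0.03, 1 higher of 17, Fgf2). Lpl is also in the disease-associated list and Atf3 in the RGC list.

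Among other cell types, endothelial cell and pericyte genes had a median of 0.78 (19 genes), bipolar cell genes 0.41 (17 genes), astrocyte genes 0.24 (10 genes) and pigment epithelium and melanocyte genes 0.18 (15 genes), with 0 calls in limma and 2, 2, 2 and 0 genes at an unadjusted p under 0.05. In IOP replicates 2 and 3 alone these medians were 0.15, 0.07, -0.19 and 0.22. DESeq2 called 1 bipolar and 1 astrocyte gene and edgeR none in the 4 lists. Of 5 neutrophil genes that passed the filter, S100a8 was called higher and Mmp9 lower. Ddx3y, a Y-linked gene, was at 2623, 556, 0 and 805 in naïve and 762, 1502, 2274 and 633 in IOP libraries, and the values of the 2 groups overlapped.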
